A study of Mus musculus with 12 samples.

Results

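The cluster of miR-183, miR-96 and miR-182 is a group of microRNAs (miRNAs) encoded side by side on mouse chromosome 6. It was represented on the arrays by 4 of 577 measured miRNAs, mmu-miR-183, mmu-miR-183*, mmu-miR-96 and mmu-miR-182, which were found by exact match of the probe annotation to these names. The star marks the miRNA cut from the opposite arm of the miR-183 hairpin. RNA of 4 mouse breast cancer cell lines was hybridised to 12 one-colour Agilent miRNA arrays, 3 for each line, whose spots shine more brightly the more of a labelled miRNA they bind. All 4 lines are labelled as wild type, female and BALB/c, with a breast cancer that arose spontaneously as their source, and the labels name no treatment. The lines 67NR, 168FARN and 4TO7 are labelled non-metastatic and 4T1 is labelled metastatic, and the series set 4T1 against the others as steps of tumour progression. In earlier work with these sister lines 67NR stayed in the primary tumour, 168FARN reached lymph nodes, 4TO7 reached the lung without forming nodules and 4T1 formed metastases. Each stage is thus 1 cell line, and a difference between stages cannot be told apart from a difference between these lines. Nothing in the labels tells whether the repeats of each line were grown as separate cultures, so the tests measure the spread between these arrays, which may be technical.

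A miRNA is cut from a hairpin in a longer primary transcript and guides the Argonaute proteins to messenger RNAs that pair with its seed, bases 2 to 8. The cluster is best known from the sensory organs, where it is abundant in hair cells and photoreceptors and where changes in the miR-96 seed cause hearing loss. It has also been reported as raised in breast carcinoma, where miR-96 and miR-182 repress the transcription factor Foxo1.

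The mature sequences are shown because miR-183, miR-96 and miR-182 differ from each other by few bases in the part that selects targets. The arrays read all 4 members with separate probes. The sequences are the RefSeq entries of the GRCm38.p6 assembly, all on the minus strand of chromosome 6, and all 4 members matched an entry. Bases are printed from the 5′ end with the seed in capitals.
miR-183: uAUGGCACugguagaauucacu
miR-96: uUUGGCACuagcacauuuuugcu
miR-182: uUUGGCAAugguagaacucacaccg
miR-183*: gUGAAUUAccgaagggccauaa
The seeds of miR-183 and miR-96 shared 6 of 7 bases and differed by A2U, counted from base 1 at the 5′ end with the first-named member's base first. The seeds of miR-96 and miR-182 also shared 6 of 7 bases and differed by C8A. Those of miR-183 and miR-182 shared 5 of 7, yet over their whole length these members were the most alike pair, with 18 of 22 positions the same. The seed of miR-183* was unlike the others and shared 0 of 7 bases with that of miR-183. Among the RefSeq mature mouse miRNAs the miR-96 seed was also held by miR-1271-5p, which has no probe of that name on the array.

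The hairpins lie within 3820 bases, Mir183 at chr6:30169668-30169737, Mir96 at chr6:30169446-30169551 and Mir182 at chr6:30165918-30165992 (GRCm38.p6). Mir183 and Mir96 are 116 bases apart, and Mir182 lies 3453 bases further along the direction of transcription. All 3 fall inside the annotated long noncoding gene Mirc35hg at chr6:30158640-30174125, on the same strand. The nearest protein-coding genes are Nrf1, 12459 bases from the Mir182 hairpin, and Ube2h, 41551 bases from the Mir183 hairpin. The miR-183 hairpin is shown because it carries 2 of the 4 members, which appear in capitals with miR-183 first.
Mir183: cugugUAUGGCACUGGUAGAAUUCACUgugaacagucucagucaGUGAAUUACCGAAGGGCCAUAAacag
The promoter window of Mirc35hg, from 250 bases before to 50 bases after its annotated start, is shown as the start that the annotated host gives to all 3 hairpins. Its coordinates are chr6:30174076-30174375 on the minus strand (RefSeq, GRCm38.p6).
Mirc35hg: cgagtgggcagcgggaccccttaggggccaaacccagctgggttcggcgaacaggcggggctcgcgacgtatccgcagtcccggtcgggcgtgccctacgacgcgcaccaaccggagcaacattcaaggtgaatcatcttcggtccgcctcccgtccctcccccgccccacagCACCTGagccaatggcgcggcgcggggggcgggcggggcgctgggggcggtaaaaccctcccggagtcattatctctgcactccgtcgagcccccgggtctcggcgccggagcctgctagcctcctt
The capitals mark the 1 match to CAGGTG or its reverse complement CACCTG, an E-box of the type that Zeb repressors bind, at base 174 of the window and 77 bases before the annotated start. Both strands were searched, and 6640 of 32851 promoter windows of this length (20.2%) hold the motif.

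Across the series 141 to 191 miRNAs per array were well above background, the scanner software's mark for a spot brighter than its surroundings, and no spot was saturated. Processed signals were divided by a scale factor of each array, which was 358 to 460 in 67NR, 600 to 671 in 4TO7, 889 to 1136 in 4T1 and 791 to 1213 in 168FARN. The resulting log2 value is called the level. Correlations of levels between arrays of the same line were 0.993 to 0.9995, those between 4TO7 and 4T1 were 0.959 to 0.965, and those of 67NR with the other lines were 0.539 to 0.636. The 67NR arrays stood apart in 2 further ways. All 3 lay on the slide that otherwise held only 168FARN replicate 1, and the control probes named hur_5 read 180 to 206 there against 1.25 to 6.36 on the other 9 arrays. The part of these differences in any 67NR result was not tested.

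**Figure D1:**
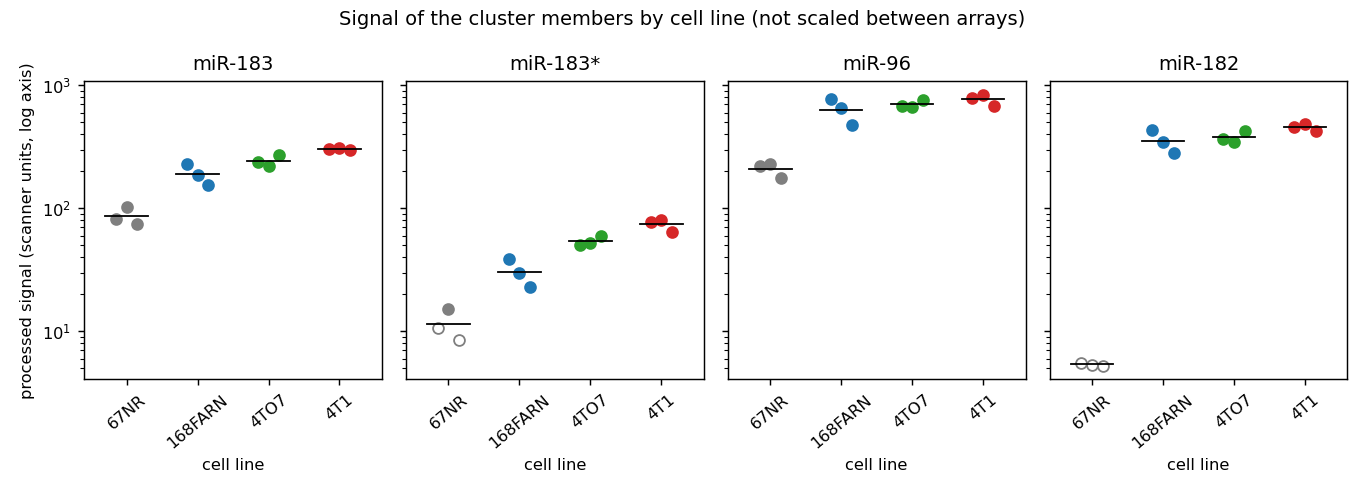
Processed signal (scanner units, log axis, not scaled between arrays) of the brightest probe of each member in the 4 cell lines. Each point is 1 array, the line is the mean of 3 arrays, and open points were not well above background; all miR-182 points of 67NR lie between 5.24 and 5.56, while those of the other lines lie between 281 and 487.

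miR-182 was read in 3 lines and not in 67NR. Its processed signal on the 3 arrays of 67NR was 5.56, 5.33 and 5.24 scanner units, and no array was well above background there. The 168FARN arrays gave 437, 348 and 281 units, those of 4TO7 365, 346 and 429 and those of 4T1 461, 487 and 426. No array of 67NR came near the lowest array of any other line. After scaling, the miR-182 level was -1.46 ± 0.04 in 168FARN, -0.73 ± 0.09 in 4TO7 and -1.18 ± 0.10 in 4T1 (log2, mean ± SD, n = 3 arrays), and all 67NR arrays lay at the floor of -5.58 that replaced lower values. The order of miR-182 levels was thus 4TO7, 4T1, 168FARN and 67NR, with no overlap between neighbouring lines.

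miR-96, whose seed differs from that of miR-182 by its last base, was well above background on all 12 arrays. Its signal was 219.8, 229 and 176 units in 67NR and 770.1, 655 and 480.1 in 168FARN. The 4TO7 arrays gave 676, 661 and 762 units and those of 4T1 gave 792, 841 and 679.6. The 67NR arrays were the lowest of all, yet far from background. The miR-96 level was -1.02 ± 0.05 in 67NR, -0.63 ± 0.11 in 168FARN, 0.15 ± 0.04 in 4TO7 and -0.43 ± 0.04 in 4T1 (log2, mean ± SD, n = 3). The order was the same as for miR-182, with no overlap between neighbours.

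miR-183, from the hairpin nearest the annotated start, was also well above background on all 12 arrays. Its signal was 82.2, 102 and 74.8 units in 67NR and 231, 186 and 154 in 168FARN. The 4TO7 arrays gave 239.8, 221 and 269 units and those of 4T1 gave 304, 310.2 and 300.3. Unscaled, every 67NR array was below every array of the other lines. The miR-183 level was -2.29 ± 0.18 in 67NR, -2.36 ± 0.04 in 168FARN, -1.37 ± 0.09 in 4TO7 and -1.76 ± 0.17 in 4T1 (log2, mean ± SD, n = 3). The levels ran from 4TO7 over 4T1 to the pair of 67NR and 168FARN, which overlapped.

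miR-183*, the opposite arm of the same hairpin, was well above background on 10 of 12 arrays. Its signal was 10.7, 15.2 and 8.51 units in 67NR, where replicate 2 alone was well above background. The 168FARN arrays gave 38.7, 29.9 and 23.1 units, those of 4TO7 49.99, 52.7 and 59.6 and those of 4T1 76.9, 80.5 and 64.6. The 67NR values lay close to the limit of what the arrays read. The miR-183* level was -5.24 ± 0.31 in 67NR, -5.01 ± 0.08 in 168FARN, -3.54 ± 0.05 in 4TO7 and -3.81 ± 0.03 in 4T1 (log2, mean ± SD, n = 3). The lines 4TO7 and 4T1, in that order, stood above the other pair, whose arrays overlapped.

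**Figure D2:**
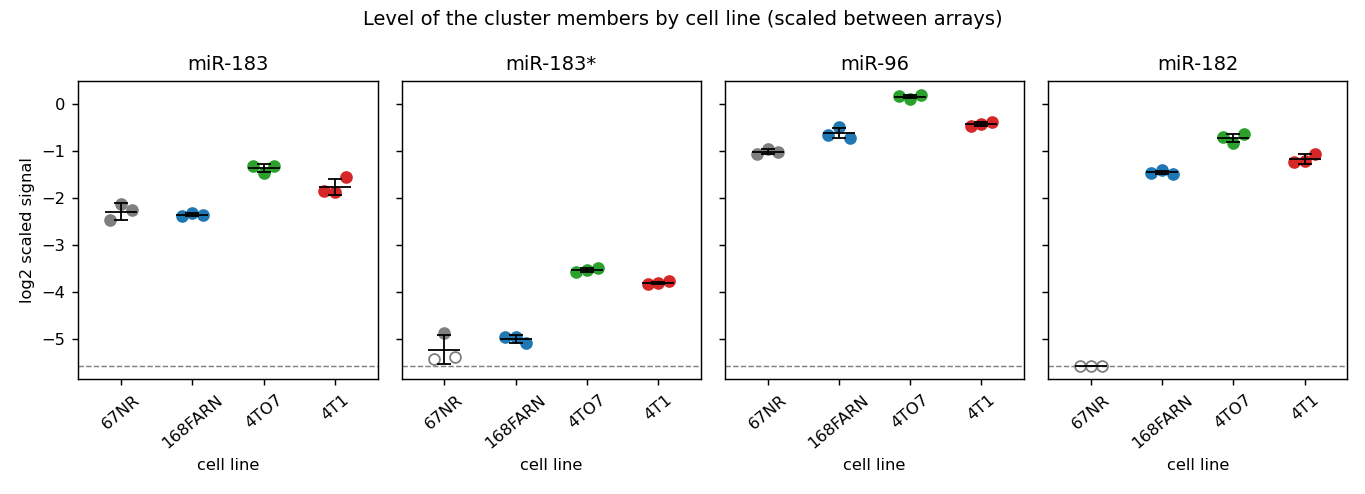
Level of each member (log2 of the scaled signal) by cell line, with each array as a point and the mean ± SD of 3 arrays as a bar. Open points were not well above background, the dashed line is the floor of -5.58, and all 4 members have their highest mean in 4TO7 after scaling.

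The unscaled signal and the scaled level ordered 4TO7 and 4T1 differently. For each member the mean signal was highest in 4T1, at 458 units for miR-182, 771 for miR-96, 305 for miR-183 and 74.0 for miR-183*, whereas the mean level was highest in 4TO7. The summed signal of the 4 members ran from 264 to 352 units on the 67NR arrays, from 938 to 1477 in 168FARN, from 1282 to 1520 in 4TO7 and from 1471 to 1718 in 4T1. Every 67NR sum was thus below those of the other 3 lines, whose ranges overlapped.

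Differences were tested with limma over 224 miRNAs, those that every array of 1 or more lines had read well above background, and are given as log2 ± standard error with Benjamini-Hochberg adjusted two-sided p-values, called below 0.05. All 4 members entered, miR-182 and miR-183* through the 3 lines other than 67NR. Because 67NR gave no reading of miR-182, its difference from 67NR is given as a lower bound, the mean level of the other line over the lowest level that was well above background on each 67NR array. The p-values beside these bounds are of levels set to the floor in 67NR, for a miRNA that entered through the lines that read it, and add nothing to the readings themselves. miR-183* also entered through the other lines alone and was read on 1 of 3 67NR arrays, with a mean level of -5.24 near the floor of -5.58. Its p-values against 67NR therefore add little to its readings.

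Against 67NR, the line confined to the primary tumour, 168FARN had higher miR-182 and miR-96 and no called difference in the products of the miR-183 hairpin. miR-182 was at least 10.3-fold higher (limma, adjusted p = 2.34e-14). The miR-96 level was higher by 0.39 ± 0.05, or 1.31-fold (adjusted p = 2.85e-05). The difference was -0.06 ± 0.10 for miR-183 (adjusted p = 0.577) and 0.23 ± 0.12 for miR-183* (adjusted p = 0.0925), with overlapping arrays for both. So 2 of 4 members were called, both higher, where 87.9% of all tested miRNAs were called, 40.2% higher and 47.8% lower, and 86.6% had arrays that did not overlap. The members' median difference was 0.31 and that of all tested miRNAs -0.06. Both results for the miR-183 hairpin depended on the processing. The miR-183 difference was 0.41 when the 75th percentile was taken over all probes (adjusted p = 0.00378), 0.40 with quantile scaling and 1.13 without scaling, where the median of all tested miRNAs moved to 0.35. That of miR-183* was called at 0.48, 0.35 and 1.05 under these scalings and at 0.59 with the scanner's total gene signal, and at -0.68 with normexp (adjusted p = 7.43e-08). The median of all tested miRNAs with normexp was -0.60, with 50 called higher and 156 lower. With no scaling 107 of the 179 called miRNAs were higher, against 90 of 197 in the analysis given here.

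4TO7 had higher levels of all 4 members than 67NR. The difference was 1.17 ± 0.05 for miR-96, or 2.25-fold (limma, adjusted p = 1.26e-09), 0.92 ± 0.10 for miR-183, or 1.90-fold (adjusted p = 3.33e-06), and 1.70 ± 0.12 for miR-183* (adjusted p = 7.32e-08). miR-182 was at least 17.1-fold higher (adjusted p = 6.79e-15). The 4 calls stand beside 79.9% of all tested miRNAs called, 31.7% higher and 48.2% lower, with 80.4% free of overlap. The members' median was 1.43 against -0.12 for all tested miRNAs. miR-183* was read on 1 of 3 67NR arrays, so no fold is given and its call adds little to the readings. Its difference was 1.04 with a floor 2 times as high. With normexp background correction, which adds 50 units to every signal, it was 0.12 (adjusted p = 0.0713), while the median of all tested miRNAs was -0.48.

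4T1 also had higher levels of all 4 members than 67NR. The difference was 0.59 ± 0.05 for miR-96, or 1.504-fold (limma, adjusted p = 8.26e-07), 0.53 ± 0.10 for miR-183, or 1.45-fold (adjusted p = 3.61e-04), and 1.43 ± 0.12 for miR-183*, again read on 1 of 3 67NR arrays (adjusted p = 3.75e-07). miR-182 was at least 12.5-fold higher (adjusted p = 1.81e-14). Of all tested miRNAs 79.5% were called, 32.1% higher and 47.3% lower, and 81.2% had arrays that did not overlap. The members' median was 1.01 and the overall median -0.05. The calls split into 72 higher and 106 lower, which became 90 and 87 for the 75th percentile of every probe, and 104 and 66 without scaling. The miR-183* difference was 0.77 with the floor 2 times as high and turned to -0.33 with normexp, which also took miR-183 to 0.11 and the median of all tested miRNAs to -0.62.

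Between 2 lines that both read every member, 4TO7 had higher levels of all 4 than 168FARN. miR-183* differed most, by 1.47 ± 0.12 or 2.77-fold (limma, adjusted p = 4.21e-07), followed by miR-183 at 0.99 ± 0.10 or 1.98-fold (adjusted p = 2.85e-06). The differences of miR-96, 0.78 ± 0.05 or 1.72-fold (adjusted p = 1.03e-07), and miR-182, 0.73 ± 0.06 or 1.66-fold (adjusted p = 2.65e-07), were nearly the same size. No array of 4TO7 overlapped one of 168FARN for any member, which held for 73.2% of all tested miRNAs, and 74.6% were called, 35.3% higher and 39.3% lower. The members' median was 0.88 and the overall median 0. Without scaling the differences fell to 0.11 for miR-182 (adjusted p = 0.529) and 0.16 for miR-96 (adjusted p = 0.405), while the median of all tested miRNAs was -0.50 and the calls were 38 higher and 127 lower, against 79 and 88. With normexp the miR-183* difference was 0.81, below that of miR-183 at 0.86.

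4T1 likewise had higher levels of all 4 members than 168FARN. The difference was 1.198 ± 0.12 for miR-183*, or 2.29-fold (limma, adjusted p = 2.62e-06), and 0.60 ± 0.10 for miR-183, or 1.51-fold (adjusted p = 1.85e-04). It was 0.28 ± 0.06 for miR-182, or 1.22-fold (adjusted p = 6.98e-04), and 0.20 ± 0.05 for miR-96, or 1.15-fold (adjusted p = 0.00597). Both arms of the miR-183 hairpin thus differed more than the other members. Of all tested miRNAs 74.1% were called, 34.4% higher and 39.7% lower, and 76.8% had arrays that did not overlap. The members' median was 0.44 and the overall median 0. The miR-96 call was lost without scaling, at 0.30 (adjusted p = 0.126), and when the arrays of the second slide were fitted by themselves, at 0.18 ± 0.07 (adjusted p = 0.0524), and that of miR-182 with the scanner's total gene signal, at 0.29 (adjusted p = 0.145). The miR-183* difference was 0.77 with the floor 2 times as high and 0.35 with normexp.

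In the direct comparison of the metastatic line with 4TO7, the levels of miR-96, miR-182 and miR-183 were lower in 4T1 after scaling. The difference was -0.58 ± 0.05 for miR-96, or 1.498-fold (limma, adjusted p = 2.65e-06), -0.45 ± 0.06 for miR-182, or 1.36-fold (adjusted p = 3.47e-05), and -0.39 ± 0.10 for miR-183, or 1.31-fold (adjusted p = 0.00456). That of miR-183* was -0.27 ± 0.12, with a 95% confidence interval of -0.53 to -0.01 and an adjusted p of 0.0715. All 3 arrays of 4T1 lay below those of 4TO7 for each of the 4 members. The 3 called members stand beside 60.7% of all tested miRNAs called, 25% higher and 35.7% lower, with 67.9% free of overlap. The members' median was -0.42 and the overall median 0.

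The direction of this comparison depended on the scaling between arrays. Without scaling the difference was 0.14 for miR-96 (limma, adjusted p = 0.605), 0.27 for miR-182 (adjusted p = 0.151), 0.33 for miR-183 (adjusted p = 0.0957) and 0.45 for miR-183* (adjusted p = 0.0310), all higher in 4T1. The median of all tested miRNAs then moved to 0.34, and relative to it the differences were -0.21, -0.07, -0.01 and 0.11 in the same order. With the 75th percentile of all probes miR-96 alone passed, at -0.30 (adjusted p = 0.00684), and the others were between -0.17 and 0.01. Calls over all tested miRNAs were 56 higher and 80 lower in the analysis given here, 80 and 40 for the 75th percentile of every probe, and 105 and 7 without scaling. Which of the 2 lines held more of the cluster per cell was not measured.

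**Figure D3:**
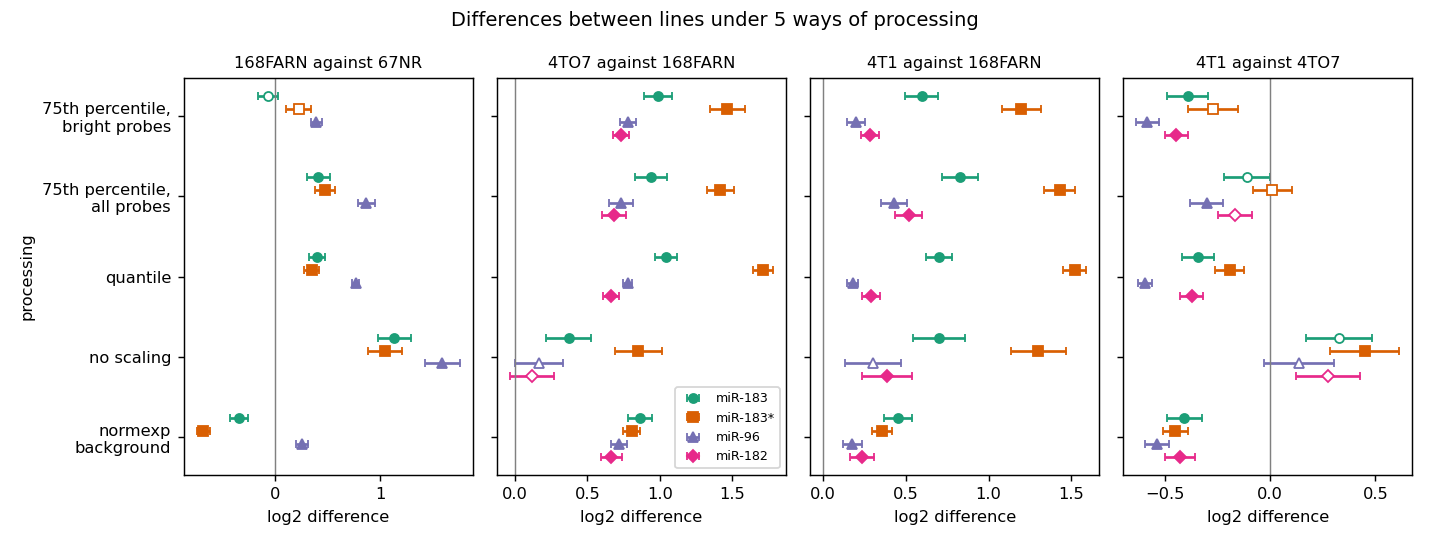
Difference of each member between 2 lines (log2, point with its standard error as a bar) under 5 ways of processing, for 4 comparisons; filled symbols were called by limma (adjusted p below 0.05) and open symbols were not. miR-182 is left out against 67NR, where it was unread; in the last panel the differences are negative with the scaling used here and positive without scaling.

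Set against the mean of the 3 non-metastatic lines, 4T1 had higher levels of 3 members, and this mean rested on 67NR. miR-182 was higher by at least 2.24-fold (limma, adjusted p = 1.24e-10), miR-183* by 0.78 ± 0.10 (adjusted p = 1.41e-05) and miR-183 by 0.25 ± 0.08 (adjusted p = 0.0136), while miR-96 differed by 0.07 ± 0.04 (adjusted p = 0.166). The arrays of 4T1 lay within the range of the other 9 for every member, as for most miRNAs, since 17.4% of those tested had arrays that did not overlap. Of all tested miRNAs 87.5% were called, 28.1% higher and 59.4% lower, with an overall median of -0.34 and a members' median of 0.51. Without the 67NR arrays the difference was -0.08 for miR-182, -0.19 for miR-96 (adjusted p = 0.00919) and 0.10 for miR-183 (adjusted p = 0.269), and miR-183* kept 0.46 (adjusted p = 1.98e-05). Leaving out 4T1 replicate 3 alone also took miR-183 to 0.15 (adjusted p = 0.0981). The split of 63 higher and 133 lower became 93 and 98 for the 75th percentile of every probe, 88 and 107 after quantile scaling and 111 and 66 without scaling.

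Members of the cluster were next set against each other on the same array, since the scale factor of an array cancels in such a difference. The floor does not cancel, nor does quantile scaling, which was not run for these pairs. A value here is the log2 level of 1 member minus that of another and says nothing of which miRNA was more abundant, because probes differ in brightness. An exact permutation test of the between-line F statistic, over the lines that read both members on all arrays, was run for 6 pairs with Benjamini-Hochberg adjustment over them.

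miR-182 and miR-96 kept a similar distance in the 3 lines that read both. miR-182 minus miR-96 was -0.84 ± 0.07 in 168FARN, -0.88 ± 0.05 in 4TO7 and -0.75 ± 0.06 in 4T1 (SD, n = 3), and the permutation test called no difference between the lines (F = 3.62, exact p = 0.0857, adjusted 0.0857). Every 4T1 array still lay above every 4TO7 array, at -0.79 to -0.67 against -0.93 to -0.83. The 168FARN arrays overlapped both. In 67NR the value with miR-182 at the floor was -4.56 ± 0.05. With miR-182 at the lowest level each 67NR array read, it was -3.80 ± 0.28, which is an upper limit and is given without a test because miR-182 was not read there.

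miR-183 moved apart from both. miR-96 minus miR-183 was 1.27 ± 0.13 in 67NR, 1.73 ± 0.09 in 168FARN, 1.52 ± 0.05 in 4TO7 and 1.33 ± 0.14 in 4T1 (SD, n = 3), and the 4 lines differed (F = 11.3, exact p = 0.00253, adjusted 0.0107). The distance was largest in 168FARN, whose arrays lay above those of every other line. miR-182 minus miR-183 was 0.90 ± 0.03 in 168FARN, 0.64 ± 0.03 in 4TO7 and 0.58 ± 0.07 in 4T1 (F = 33.7, exact p = 0.0143, adjusted 0.0171). Here too 168FARN stood above the others, and 4TO7 and 4T1 overlapped. The test of miR-182 with miR-183 missed the threshold with normexp (adjusted p = 0.0643) and with the second brightest probe (adjusted p = 0.0536).

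The 2 arms of the miR-183 hairpin also changed unequally. miR-183* minus miR-183 was -2.65 ± 0.08 in 168FARN, -2.17 ± 0.10 in 4TO7 and -2.05 ± 0.15 in 4T1 (SD, n = 3; F = 24.6, exact p = 0.0107, adjusted 0.0161). The star arm was thus lower relative to its partner in 168FARN, while 4TO7 and 4T1 overlapped. miR-96 minus miR-183* was 4.38 ± 0.07, 3.69 ± 0.06 and 3.38 ± 0.02 in these lines (F = 288, exact p = 0.00357, the smallest that 9 arrays in 3 lines allow, adjusted 0.0107). miR-182 minus miR-183* was 3.55 ± 0.05, 2.81 ± 0.08 and 2.63 ± 0.08 (F = 136, exact p = 0.00714, adjusted 0.0143). All tests with miR-183* missed the threshold with normexp and with the second brightest probe, for which its mean signal per line was 2.94 to 32.9 units, and that of the 2 arms also with a floor 2 times as high.

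**Figure D4:**
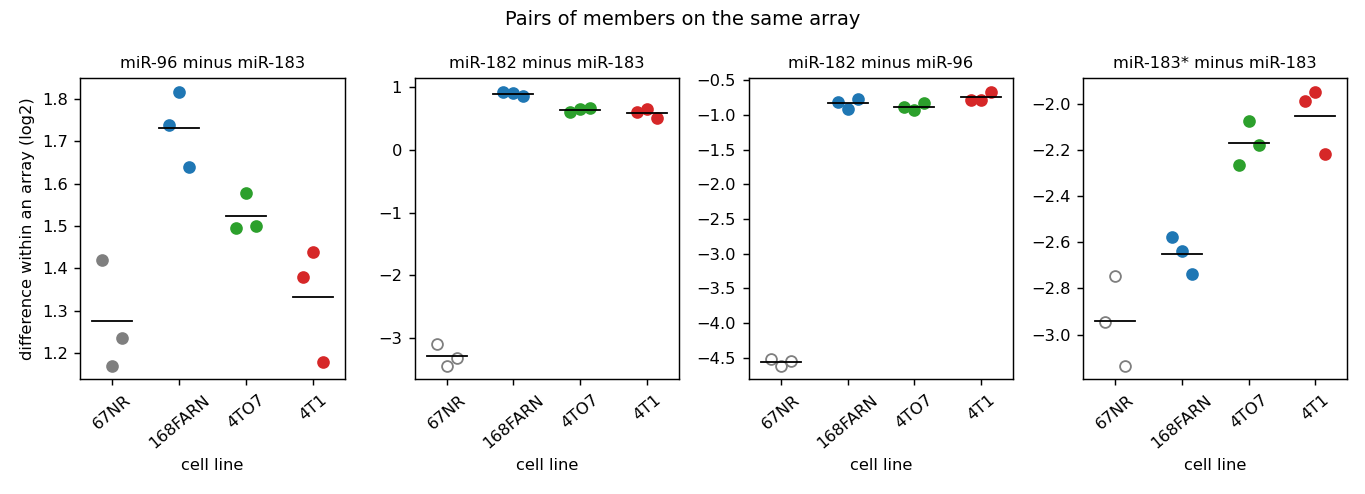
Difference of 2 members' levels on the same array (log2) for 4 pairs, by cell line; each point is 1 array, the line is the mean of 3, and the vertical axes differ between panels. Open points have a member not well above background on all arrays of that line; miR-182 minus miR-96 stays between -0.93 and -0.67 in the 3 lines that read both.

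Each member was read by probes for targets of several lengths, whose coordinates the array annotation gives on mm9. The longest targets lay on chromosome 6 at 30119711 to 30119729 for miR-183, 30119672 to 30119686 for miR-183*, 30119506 to 30119527 for miR-96 and 30115962 to 30115977 for miR-182. The longest target gave the brightest probe for every member and stood for it above. miR-182 had a second probe with a target of 15 bases, which read 61.4 units in 168FARN, 64.1 in 4TO7 and 81.2 in 4T1 and -0.70 in 67NR (means of 3 arrays). Both probes thus left miR-182 unread in 67NR. On those same arrays the shorter probes of miR-96 and miR-183 read 136 and 36.5 units. Since miR-182 and miR-183 share 18 of 22 positions, binding of the related miRNA to a probe is possible in principle, and it was not tested. The probes of miR-183* with targets of 12 and 13 bases read at most 5.13 units on any array.

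**Figure D5:**
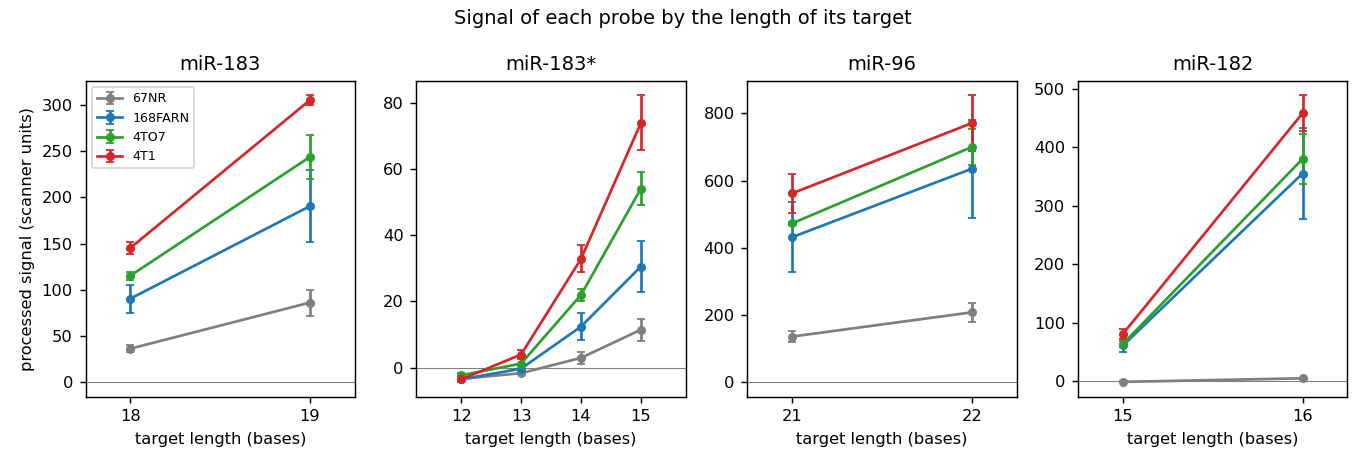
Mean processed signal (scanner units, ± SD over 3 arrays) of each probe of a member against the length of its target in bases, with a line for each cell line. In every panel the longest target is the brightest in 168FARN, 4TO7 and 4T1, and 67NR is the lowest line at that length.

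The miRNAs whose levels followed each member most closely were ranked by Pearson's r over the 12 arrays among the 223 other tested miRNAs. These correlations describe 4 lines measured 3 times each and carry no test. miR-182 was most like miR-31* (r = 0.998), miR-31 (0.998), miR-345-5p (0.998), miR-98 (0.996) and let-7d (0.995), all of which had their lowest level in 67NR. miR-31 had a mean level of -2.53 in 67NR and 0.88 in 168FARN. miR-31 is known as a suppressor of breast cancer metastasis, and let-7d and miR-98 belong to the let-7 family. Over the 9 arrays without 67NR the r of miR-182 was 0.976 with miR-31, 0.953 with miR-31*, 0.887 with miR-345-5p, 0.836 with miR-98 and 0.824 with let-7d.

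miR-183 was most like miR-467c (r = 0.967), miR-467e (0.963), miR-669b (0.961), miR-467a (0.956) and miR-467b (0.955). miR-183* was most like miR-669a (0.978), miR-467a* (0.978), miR-467b (0.977), miR-466e-3p (0.977) and miR-467a (0.976). All of these lie on chromosome 2, and all were at the floor on average in both 67NR and 168FARN, where they were not read. miR-96 was most like miR-805 (0.976), miR-669c (0.936), miR-466c-5p (0.928), miR-467c (0.927) and miR-467e (0.923). The members were less like each other than these over the 12 arrays, with r of 0.942 between miR-183 and miR-183*, 0.889 between miR-183 and miR-96, 0.813 between miR-96 and miR-182 and 0.589 between miR-183 and miR-182. Over the 9 arrays without 67NR the last became 0.967 and that of miR-96 with miR-182 became 0.976.

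Other miRNAs reported to repress Foxo1 were taken as companions of miR-96 and miR-182. Of 6 on the array 2 were tested, miR-27a and miR-27b. miR-27a had mean signals of 153 units in 67NR, 2699 in 168FARN, 1761 in 4TO7 and 1845 in 4T1, and its level was higher than in 67NR by 2.93 ± 0.05 in 168FARN, 2.95 ± 0.05 in 4TO7 and 2.29 ± 0.05 in 4T1 (limma, adjusted p at most 6.15e-13). It was thus low in 67NR, as miR-182 was, but remained read there. miR-27b had 197, 235, 84.7 and 550 units in the same order of lines. It was higher in 4T1 than in 4TO7 by 1.97 ± 0.08 (limma, adjusted p = 3.57e-09), opposite to the 3 called members. The difference of miR-27a in 4T1 against 4TO7 was -0.66 ± 0.05 (limma, adjusted p = 2.49e-07), in the direction of those members. miR-223, miR-135a and miR-135b were unread on every array, and miR-139-5p was read on 1 array of 168FARN.

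Of 11 miRNAs known from sensory organs and retina, the tissues in which the cluster is best known, 4 were tested. Against 67NR 1 was higher and 3 were lower in each of the 3 other lines, where 31.7 to 40.2% of all tested miRNAs were higher and 47.3 to 48.2% lower. miR-125b-5p was higher by 4.54 ± 0.04 in 168FARN, 4.96 ± 0.04 in 4TO7 and 5.61 ± 0.04 in 4T1 (limma, adjusted p at most 1.30e-15). miR-9* was lower in these lines, with differences of -0.94 ± 0.08, -1.53 ± 0.08 and -1.96 ± 0.08 (adjusted p at most 4.16e-07). miR-181b differed by -0.73 ± 0.10 in 168FARN and -2.15 ± 0.10 in 4T1 (adjusted p at most 3.67e-05) and was unread in 4TO7, at least 3.87-fold below 67NR. It was read on all 3 arrays of 4T1, but its level there of -5.51 ± 0.11 was next to the floor of -5.58, which limits that difference. The retinal miRNAs miR-204, miR-211 and miR-184 and the neuronal miR-124 were unread on every array.

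Markers of cell type differed between the lines in their own ways. None of 8 epithelial miRNAs on the array was tested, and their summed signal was 29.3 to 47.6 units on the 67NR arrays and at most 6.35 elsewhere. miR-200c and miR-141, defining members of this list, were read on 1 of 3 67NR arrays each and on none of the other lines, so the markers of epithelium were unread or at the limit of reading in all 4 lines. Of 8 mesenchymal miRNAs on the array 6 were tested, and their summed signal was 723 to 1146 units in 168FARN, 105 to 136 in 67NR, 141 to 158 in 4TO7 and 233 to 293 in 4T1. All 6 were higher in 168FARN than in 67NR, as were 40.2% of all tested miRNAs. All 6 were lower than in 168FARN in 4TO7 and in 4T1, as were 39.3% and 39.7% of those tested. miR-199a-5p, miR-199b, miR-199b* and miR-143 entered the test through 168FARN alone and lay at the floor in the other lines. Their direction was thus fixed by that entry. miR-140 and miR-140* were read in all 4 lines and were higher in 168FARN than in 67NR by 0.26 ± 0.04 and 0.68 ± 0.05. miR-199b, miR-199a-5p and miR-199b* were at least 7.93-fold, 3.52-fold and 2.82-fold higher in 168FARN than in 67NR (limma, adjusted p at most 2.60e-14). As with miR-182, these p-values are of levels set to the floor in 67NR and add nothing to the readings. The haematopoietic miR-142-3p was read in 168FARN alone, with the other 5 markers of blood cells unread on every array, and the summed signal of that list was 44.4 to 61.5 units there against at most 19.9 elsewhere. The endothelial miR-126-3p read 108 units in 67NR, 23.5 in 4TO7 and 41.6 in 4T1 and was unread in 168FARN. The other endothelial marker, miR-126-5p, was unread on every array, with mean signals of 10.3 units in 67NR and 2.18 to 5.69 in the other lines. These marker levels move with the lines, and their part in the cluster's differences was not tested.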

How the data were processed

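The deposited values are spot intensities that Feature Extraction 10.2.1.3 had background-subtracted, with no scaling between arrays, per the file headers, and the flags are the same software's. The label protocol gives 100 ng of total RNA per array. From these, control spots and 284 to 508 outlier spots per array of 12493 were left out, spots were averaged within 1712 probes, and signals were divided by an array's 75th percentile among the 170 probes well above background (more than 0.5 of spots) on all 12 arrays. Values under a floor of 0.0209 were raised to it, and log2 was taken. The brightest probe stood for a miRNA.

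limma 3.58.1 in R 4.3.3 (with version 1.17.8 of the data.table package) fitted the 4 lines to all 12 arrays (8 residual degrees of freedom). Changes of 1.2, 1.5 and 2-fold were put into 20 miRNAs each for 4T1 against 4TO7. Of these 17, 20 and 20 were recovered, with 4 false calls among the unchanged rest of the 224 miRNAs. The simulation applied no floor and no scaling between arrays, so these counts do not give the error rate of the calls reported here.

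Named were the members, for each the 5 most correlated miRNAs, and up to 3 per list by adjusted p. Members and lists were chosen with earlier results of these data known. Alternatives covered scaling, background, floor, filter, probe, slide, replicate block and left-out arrays. The number of arrays limits the precision.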

Additional observations from a re-analysis of the deposited data

How the results depend on the processing

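Of the comparisons of members and the within-array tests together, 849 re-computations kept their side of the threshold and, for comparisons, their direction. Another 24 lost a call, 23 gained one and 16 reversed. A changed filter, or a left-out array of a line not compared, leaves the difference itself unchanged, so the 849 overstate how much was put to the test. miR-182 stayed called against 67NR under all alternatives that could be run. As 67NR gave no reading of miR-182, these calls restate the missing reading. Log2 differences follow. Without scaling, 4T1 against 4TO7 reversed to 0.27 for miR-182, 0.33 for miR-183, 0.45 for miR-183* and 0.14 for miR-96; 4TO7 against 168FARN fell to 0.11 for miR-182 and 0.16 for miR-96, and 4T1 against 168FARN gave 0.30 for miR-96 without a call. With the 75th percentile of all probes, 4T1 against 4TO7 was -0.17 for miR-182, -0.11 for miR-183 and 0.010 for miR-183*. Without the 67NR arrays, 4T1 against the mean of the others was -0.081 for miR-182, -0.19 for miR-96 and 0.10 for miR-183.

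For 168FARN against 67NR, miR-183 reversed to 0.41 (75th percentile of all probes), 0.019 (mean of all probes), 1.13 (no scaling), 0.40 (quantile) and 0.10 (second brightest probe), was called at -0.34 (normexp) and -0.30 (total gene signal), and ran from -0.16 to 0.015 with 1 array left out, turning without 67NR replicate 2. For miR-183* the same comparison was called at 0.48, 1.05, 0.35 (quantile) and 0.59 (total gene signal), reversed to -0.68 with normexp, ran from 0.13 to 0.40 with 1 array left out, called without 67NR replicate 2, and had no value with a raised floor or the second brightest probe, where both lines lay at the floor. With normexp, miR-183* against 67NR was -0.33 in 4T1 and 0.12 in 4TO7 and against the mean -0.14, and miR-183 was 0.11 in 4T1 against 67NR. The median of all tested miRNAs against 67NR was then -0.60 in 168FARN, -0.48 in 4TO7 and -0.62 in 4T1.

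The lower miR-183* in 4T1 than in 4TO7 was called at -0.27 with a raised floor, with only these lines, on the second slide and without the 67NR arrays, at -0.10 (mean of all probes), -0.45 (normexp), -0.19 (quantile) and -0.14 (second brightest probe), and ran from -0.29 to -0.25 with 1 array left out, called without 67NR replicate 2. For 4T1 against the mean, miR-183 lost its call at 0.25 (no filter), 0.052 (normexp), 0.22 (slide term) and 0.15 (total gene signal) and ran from 0.15 to 0.30 with 1 array left out; miR-96 gained one at 0.47 (75th percentile of all probes), 0.13 (mean of all probes), 0.78 (no scaling), 0.18 (quantile) and 0.19 (second brightest probe) and ran from 0.046 to 0.088 with 1 array left out. For 4T1 against 168FARN, miR-96 was 0.18 on the second slide and miR-182 0.29 with total gene signal, both without a call.

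Within arrays, the F statistic missed the threshold for miR-182 minus miR-183 at 15.8 (normexp) and 16.8 (second brightest probe), for miR-182 minus miR-183* at 4.16 and 15.7, for miR-96 minus miR-183* at 3.17 and 20.03 and for miR-183* minus miR-183 at 1.46, 4.66 and 2.18 (raised floor); miR-182 minus miR-96 gave 303 with unread miR-182 of 67NR set to its bound, an alternative added after the data were seen, which restates the missing reading. The cause of these changes was not tested. The filter to miRNAs read on all 12 arrays drops miR-182 and miR-183* and called 70 to 91 miRNAs per comparison, against 136 to 197. Replicate numbers did not pair the arrays: deviations of same-numbered arrays correlated at -0.80 to 0.56, over 0.1 in 6 of 18 pairs. With a replicate block no call changed, for example 0.20 for miR-96 in 4T1 against 168FARN (limma, adjusted p = 0.0106).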
